A study of Homo sapiens with 6 samples.

Results

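The hypoxia-inducible factor (HIF) machinery was described through 10 genes: the subunit genes HIF1A, EPAS1, ARNT and ARNT2, the prolyl hydroxylase genes EGLN1, EGLN2 and EGLN3, the ubiquitin ligase receptor gene VHL, the asparaginyl hydroxylase gene HIF1AN, and CITED2. They were chosen by symbol, as the core of the oxygen-sensing pathway, with earlier results of these data known. All 10 were among the 28278 gene symbols counted. RNA came from RKO, a line of human colon carcinoma cells, in 3 libraries of cells labelled wild type for GSK3B and 3 of cells labelled GSK3B knockout. No treatment, time or oxygen tension is given for either group, and neither the method behind the knockout nor its being 1 clone or a pool is stated. Nothing states that the replicates were separate cultures, so each p-value rests on the spread between these 6 libraries alone, which may be technical. The question was whether the machinery itself differed between the groups, or only those of its genes that HIF is known to induce.

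HIF is a dimer of an oxygen-labile alpha subunit and a stable beta subunit that binds hypoxia response elements in its target genes. In the presence of oxygen the EGLN enzymes hydroxylate prolines of the alpha subunit, VHL recognises the hydroxylated form, and the proteasome destroys it. HIF1AN, also known as FIH, hydroxylates an asparagine instead and so blocks the binding of the coactivators EP300 and CREBBP. Because this control acts on protein, the level of HIF1A mRNA does not report HIF activity. EGLN1, EGLN3 and CITED2 are known as HIF-inducible genes that act back on the pathway, and they are called feedback genes here. The other 7 are called machinery genes. GSK3B, a serine/threonine kinase, is known to phosphorylate the HIF1A protein, which is then degraded without VHL through the ubiquitin ligase receptor FBXW7.

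One feedback gene and one machinery gene passed the test. EGLN1, whose product hydroxylates HIF alpha subunits, fell to 77.6% of its wild-type level, with no overlap between the groups. HIF1A rose to 112%, and this small rise did not pass in every fit, as given below. EPAS1, ARNT, ARNT2, EGLN2, VHL, HIF1AN and CITED2 did not pass, and EGLN3 had too few reads to be tested. Among the 9 tested genes 1 was higher and 1 lower at an adjusted p under 0.05 in edgeR's quasi-likelihood test. Over all 14409 tested genes 6.36% were higher and 7.18% lower. The share of these genes that moved is therefore near the background, and the result lies in the single genes, not in their number. The groups did not overlap in 4 of the 9, HIF1A, EGLN1, VHL and HIF1AN, against 31.3% of all tested genes.

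**Figure D1:**
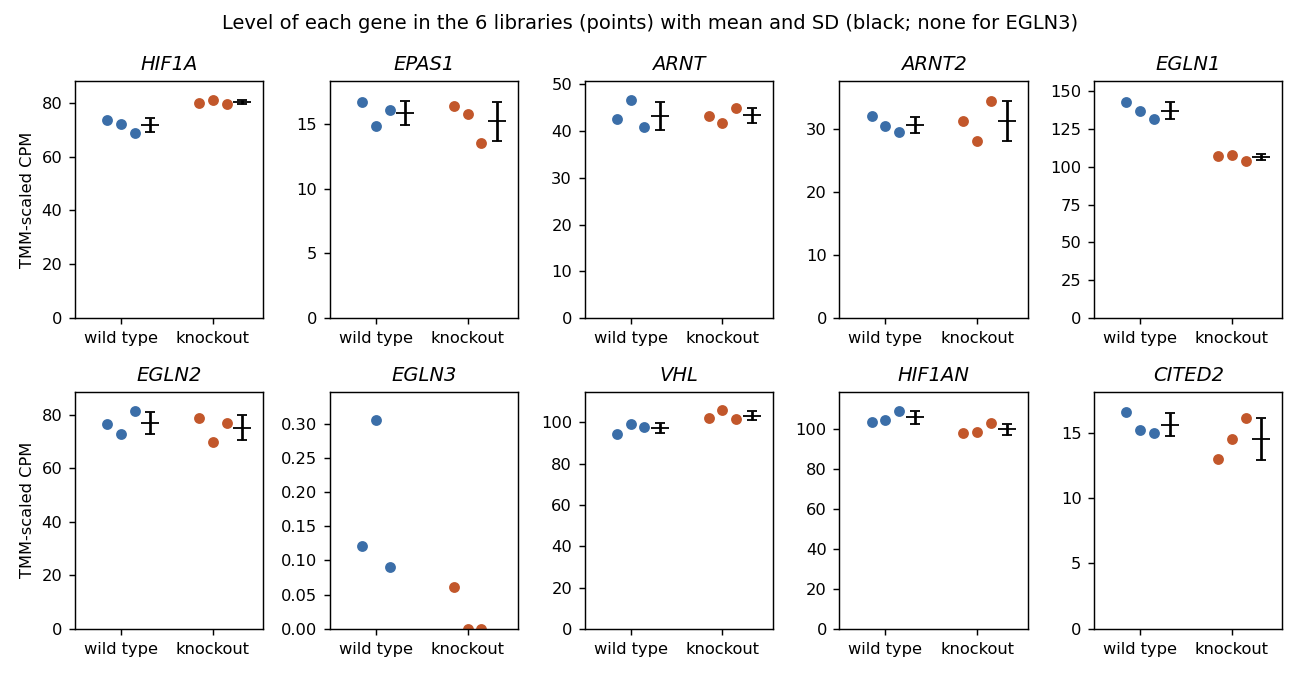
TMM-scaled read counts relative to library size (CPM, vertical axes from 0) of each of the 10 genes in the 3 wild-type (blue) and 3 knockout (orange) libraries, with the mean and SD in black except for EGLN3. The EGLN1 libraries form separate groups, 131.5 to 143.0 CPM against 104.0 to 107.9 CPM, and EGLN3 lies below 0.31 CPM throughout.

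Total counts per library ran from 32379369 to 33558362. GSK3B was lower in every knockout library, at 96.0 ± 4.05 CPM in the wild-type group and 46.8 ± 0.79 CPM in the knockout group (SD, n = 3), or 48.8% of wild type (95% interval 45.4 to 52.4). Its exact two-sided permutation p was 0.1, the smallest that 3 against 3 libraries can give. The libraries labelled knockout thus still held GSK3B transcript, and whole-gene counts do not show which part of it. Of 7 epithelial marker genes 3 had a mean of at least 1 CPM, led by KRT18, and CDH1 was listed at 0 throughout. Of 6 intestinal markers 2 did, led by CDX2 at 18.6 CPM in wild type, and CDX1 was listed at 0. The leucocyte markers PTPRC and CD3E were listed at 0, while CD68, a lysosomal protein gene, stood at 749 CPM in wild type. Summed levels of the 7 fibroblast markers were 2.31 to 6.07 CPM in the wild-type group and 1.03 to 1.23 CPM in the knockout group, led by PDGFRB, and the part of this in the results was not tested. Endothelial markers summed to at most 0.24 CPM and erythroid markers to at most 1.09 CPM in any library.

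Among the alpha subunits, HIF1A was the more abundant. HIF1A lies on chromosome 14 of hg38, from 61695513 to 61748259 on the plus strand. Wild-type replicates 1 to 3 had 73.7, 72.2 and 68.8 CPM of it, and knockout replicates 1 to 3 had 79.99, 80.9 and 79.4 CPM. Every knockout library was above every wild-type library, by a small margin. The log2 fold change was 0.16 ± 0.048 (SE, 3 libraries per group; edgeR's quasi-likelihood test, Benjamini-Hochberg adjusted p = 0.0255), with a 95% interval of 105 to 120% of wild type.

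The rise of HIF1A was close to the threshold. Its longest transcript has a GC content of 36.4%, and the fold changes of all tested genes ran with GC content. In the fifth of genes with the lowest GC content, to which HIF1A belongs, the median log2 fold change was 0.077, and in the fifth with the highest it was -0.073. With a correction for this trend HIF1A stood at 0.082 (95% interval 0.005 to 0.16) and no longer passed (edgeR, adjusted p = 0.127). It also did not pass without wild-type replicate 2 (edgeR, adjusted p = 0.079) or without knockout replicate 1, 2 or 3 (adjusted p = 0.0908, 0.125 and 0.0712), although the fold change kept its size at 0.15 to 0.17.

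An antisense gene overlaps the end of HIF1A. HIF1A-AS2, a long noncoding RNA named here after its values were seen, is placed by RefSeq on chromosome 14 of GRCh38.p14 from 61747039 to 61749089, across the 3′ end of HIF1A. It had 8.96, 10.5 and 12.6 CPM in wild-type and 13.7, 14.6 and 13.7 CPM in the knockout group libraries. The knockout libraries were again all higher (log2 fold change 0.39 ± 0.105 SE; edgeR, adjusted p = 0.0148). Because no strand setting of the counting is stated, reads of HIF1A and HIF1A-AS2 cannot be told apart where they overlap. HIF1A-AS1, at the other end of the gene, had 2.72 ± 0.28 CPM in the wild-type group and 2.79 ± 0.073 CPM in the knockout group (SD, n = 3) and did not pass (edgeR, adjusted p = 0.924).

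EPAS1 encodes HIF-2-alpha, the second oxygen-labile alpha subunit (chromosome 2, 46293667 to 46386703, plus strand). It had 16.7, 14.85 and 16.03 CPM in the wild-type group and 16.4, 15.7 and 13.5 CPM in the knockout group. The groups overlapped, and the 95% interval of its level was 84.4 to 109% of wild type (edgeR, adjusted p = 0.702). On the scale of CPM per kilobase of exon, which allows levels of different genes to be compared, EPAS1 had 2.17 ± 0.13 and HIF1A 13.9 ± 0.49 in wild type (SD, n = 3). The log2 ratio of EPAS1 to HIF1A per kilobase was -2.65, -2.79 and -2.60 in wild type and -2.79, -2.87 and -3.06 in knockout. The groups did not overlap before rounding, though wild-type replicate 2 and knockout replicate 1 almost met, and the mean difference was -0.23 (exact two-sided permutation p = 0.1, and 0.1 after Benjamini-Hochberg adjustment over 5 such measures). Without knockout replicate 3 it was -0.15. HIF1A thus supplied most alpha-subunit transcript in both groups.

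The beta subunits, ARNT and its paralog ARNT2, did not differ beyond the spread between libraries. ARNT (chromosome 1, 150809705 to 150876768, minus strand) had 42.5, 46.6 and 40.75 CPM in the wild-type group and 43.2, 41.75 and 44.9 CPM in the knockout group. Its level in the knockout was 100% of wild type (95% interval 91.7 to 109; edgeR, adjusted p = 0.993). ARNT2 (chromosome 15, 80404350 to 80597937, plus strand), better known from neural tissue, had 31.96, 30.4 and 29.4 CPM in the wild-type group and 31.2, 27.9 and 34.4 CPM in the knockout group, or 102% of wild type (95% interval 91.9 to 113; edgeR, adjusted p = 0.846). Both intervals exclude a change as large as that of EGLN1.

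EGLN1, the prolyl hydroxylase also called PHD2 and known as the main oxygen sensor for HIF1A in most cells, had the largest fold change of the 9 genes tested. On hg38 it spans 231363751 to 231425044 of chromosome 1, minus strand. Wild-type replicates 1 to 3 had 143.0, 136.7 and 131.5 CPM of it, and knockout replicates 1 to 3 had 107.0, 107.9 and 104.0 CPM. All knockout libraries were below all wild-type libraries, and the gap between the groups was wider than the range within either. The log2 fold change was -0.37 ± 0.044 (SE, n = 3 per group; edgeR, adjusted p = 3.50e-06), and the 95% interval was 72.8 to 82.6% of wild type. EGLN1 passed in all 16 alternative fits, with fold changes of -0.40 to -0.34 on the log2 scale and an adjusted p of at most 1.69e-04. With the GC correction it stood at -0.37 (edgeR, adjusted p = 9.55e-10). Of all tested genes 6.86% had a lower fold change. In RNA from bulk cells, a smaller change in all cells and a larger one in some of them cannot be told apart.

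**Figure D2:**
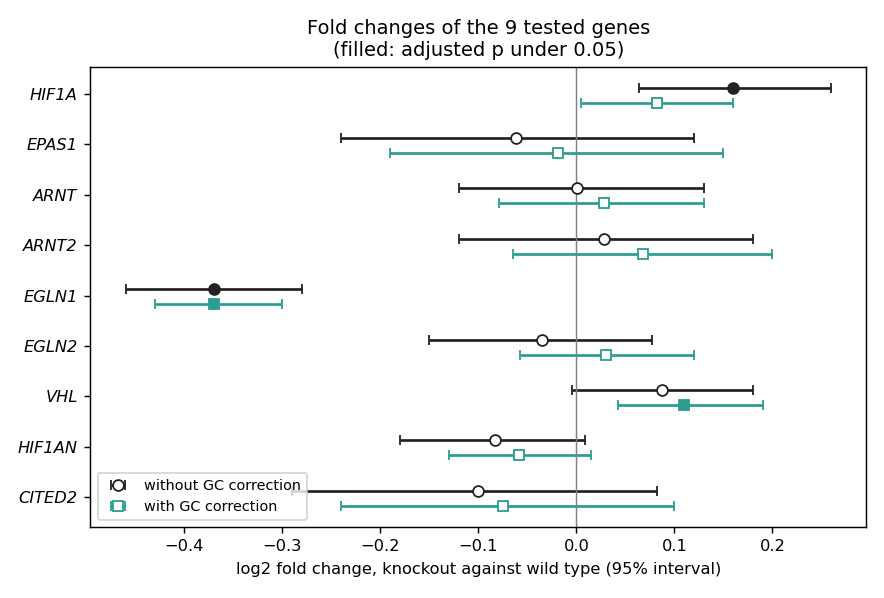
Log2 fold changes (horizontal axis, knockout against wild type) of the 9 tested genes with 95% intervals, without (black circles) and with (green squares) a correction for GC content, filled where the adjusted p was under 0.05. EGLN1 lies at -0.37 in both, HIF1A moves from 0.16 to 0.082 and loses its call, and VHL gains one at 0.11.

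EGLN2, or PHD1, is the paralog that is not known as a HIF-inducible gene. It lies on chromosome 19 from 40798996 to 40808433 on the plus strand. It had 76.4, 72.9 and 81.4 CPM in the wild-type group and 78.7, 69.8 and 76.8 CPM in the knockout group, which overlapped (97.6% of wild type, 95% interval 90.3 to 106; edgeR, adjusted p = 0.731). Its value is uncertain, because the readthrough gene RAB4B-EGLN2 shares 30.6% of the exon bases of EGLN2 on the same strand. RAB4B-EGLN2 was listed with 2532, 2440 and 2710 counts in wild type, almost the 2515, 2387 and 2712 counts of EGLN2, and did not pass either (edgeR, adjusted p = 0.611). RAB4B, the upstream gene of that readthrough pair and named here after its values were seen, fell from 5.72 ± 0.56 to 3.85 ± 0.27 CPM (SD, n = 3; edgeR, adjusted p = 0.00711).

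EGLN3, or PHD3, is usually the most strongly hypoxia-induced of the family. It had 4, 10 and 3 counts in wild-type and 2, 0 and 0 counts in knockout libraries (chromosome 14, 33924231 to 34462774, minus strand). These counts did not pass the filter on low values, and replicate 2 gave most of the wild-type total of 17. The ratio of the knockout total of 2 counts to the wild-type total, scaled by depth, was 0.117 (exact 95% interval 0.0131 to 0.492), and 0.19 (0.0192 to 0.997) without wild-type replicate 2. These intervals cover counting error only. Without a filter beyond 1 count, edgeR gave EGLN3 an adjusted p of 0.111. A count of 0 allows a level of up to 0.0933 CPM in knockout replicate 2, taken as 3 counts.

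The 3 prolyl hydroxylase genes were therefore expressed as a pair of EGLN1 and EGLN2. EGLN1 made up 62.8%, 62.8% and 59.4% of their summed level per kilobase of exon in wild type and 55.1%, 58.3% and 55.1% in knockout. Every knockout library had a smaller EGLN1 share than every wild-type library, with a mean difference of -5.49 percentage points (exact two-sided permutation p = 0.1, adjusted 0.1 over 5 measures). EGLN2 took 38.2 ± 2.04% in wild type and 43.8 ± 1.85% in knockout (SD, n = 3), and EGLN3 at most 0.14% in any library. These shares carry the uncertainty of EGLN2 given above and depend on the exon lengths used. RAB4B-EGLN2, with almost the counts of EGLN2 on 3.088 kb, had 25.1 CPM per kilobase in wild type, above the 18.9 of EGLN1. Which paralog is the more abundant is therefore uncertain. With raw counts not divided by length, the mean difference of the EGLN1 share was -5.375 points. The log2 ratio of EGLN1 to HIF1A, enzyme to substrate transcript per kilobase, was 0.46, 0.42 and 0.44 in wild type and -0.08, -0.08 and -0.11 in knockout. It was added after the values of both genes were seen. Per kilobase, EGLN1 thus exceeded HIF1A in each wild-type library and lay below it in each knockout library (mean difference -0.53, exact permutation p = 0.1). Because the 2 genes had already been seen to move apart without overlap, the separation of this ratio was fixed in advance and adds no support. Before division by exon length (7.265 and 5.151 kb), EGLN1 had more counts than HIF1A in every library, 3513 against 2627 in knockout replicate 1. Which of them stands higher in knockout therefore depends on the lengths used, while the mean difference of the log2 ratio does not.

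**Figure D3:**
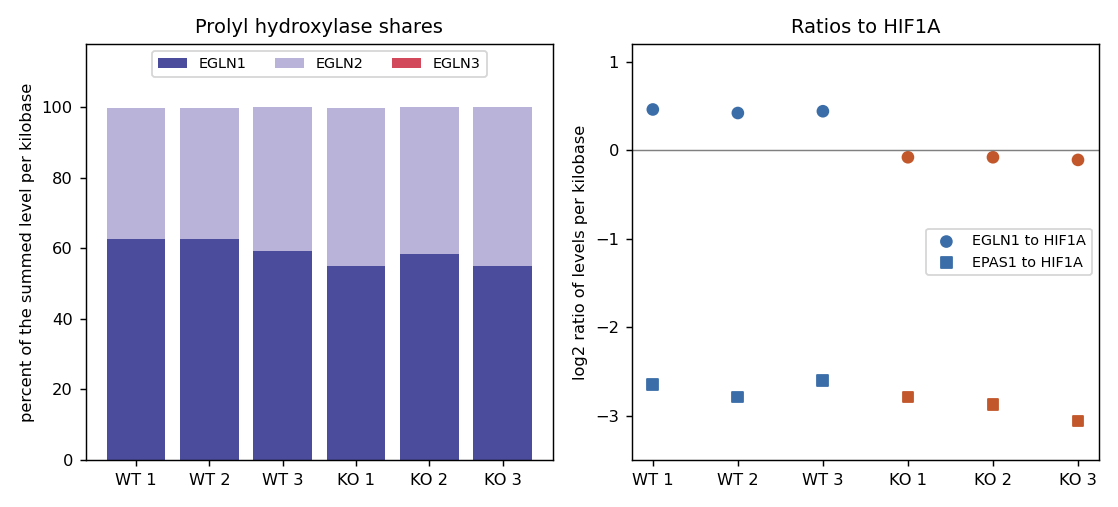
Left, share of EGLN1, EGLN2 and EGLN3 in their summed level per kilobase (percent, vertical axis) in each library, with EGLN3 too small to be seen. Right, log2 ratios per kilobase of EGLN1 (circles) and EPAS1 (squares) to HIF1A, where the EGLN1 ratio lies between 0.42 and 0.46 in wild type (blue) and between -0.11 and -0.08 in knockout (orange).

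The promoter windows of EGLN1, its paralog EGLN2 and HIF1A are shown because these genes carry the contrast between a feedback gene and the machinery. Each runs from 250 bases before to 50 after a start site in RefSeq (build GRCh38.p14), read 5′ to 3′ on the strand of the gene. Capitals mark matches on either strand to the core letters of a hypoxia response element, ACGTG or GCGTG, with overlapping matches joined into 1 site. The windows are chr1:231422238-231422537 on the minus strand for EGLN1, chr19:40798941-40799240 on the plus strand for EGLN2, and chr14:61695263-61695562 on the plus strand for HIF1A.
EGLN1: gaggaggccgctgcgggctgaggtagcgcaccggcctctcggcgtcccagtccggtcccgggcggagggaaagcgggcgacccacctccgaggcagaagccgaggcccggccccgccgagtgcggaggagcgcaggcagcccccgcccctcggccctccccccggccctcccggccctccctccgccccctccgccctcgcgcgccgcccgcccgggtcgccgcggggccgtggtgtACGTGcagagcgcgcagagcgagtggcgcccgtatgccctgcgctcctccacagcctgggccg
EGLN2: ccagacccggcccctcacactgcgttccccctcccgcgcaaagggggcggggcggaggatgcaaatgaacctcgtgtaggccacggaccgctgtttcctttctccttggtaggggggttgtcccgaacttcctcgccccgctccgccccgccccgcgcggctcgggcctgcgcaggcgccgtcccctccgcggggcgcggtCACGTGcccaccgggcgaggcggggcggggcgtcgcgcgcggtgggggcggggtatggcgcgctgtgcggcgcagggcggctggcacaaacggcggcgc
HIF1A: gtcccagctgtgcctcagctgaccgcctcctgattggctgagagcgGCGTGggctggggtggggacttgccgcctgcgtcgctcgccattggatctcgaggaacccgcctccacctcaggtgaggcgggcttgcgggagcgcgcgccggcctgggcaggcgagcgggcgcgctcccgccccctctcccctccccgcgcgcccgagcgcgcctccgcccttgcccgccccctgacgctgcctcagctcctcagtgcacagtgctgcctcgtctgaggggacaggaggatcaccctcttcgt

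EGLN1 had 1 ACGTG site, which began 13 bases before the start site of its window. EGLN2 also had 1 such site, a palindrome matched on both strands that began 49 bases before, and HIF1A had 1 GCGTG site, 204 bases before. The EGLN1 window lies inside the span given above for that gene, downstream of its 5′ end at 231425044. A second window of EGLN2 and a second window of HIF1A held neither motif, while each of the 3 windows of CITED2 held 1 or 2 sites. Of the 12 windows found for 8 of the 10 genes, 7 held either motif (58.3%), beside 48.4% of all 35116 windows of this length. These 7 include the 3 windows of CITED2, which overlap, so that 1 GCGTG site was counted in 2 of them. EGLN3 had no match in its window. Of 43 windows of the HIF target genes listed below, 39 (90.7%) held either motif. That list was drawn up from genes with known hypoxia response elements or in standard use as HIF readouts, so a high share was partly built in. A match is a description of the letters, not of binding. ARNT2 and VHL had no window in the table used.

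VHL, the receptor of the ligase that recognises hydroxylated HIF, had the highest level per kilobase of the 10 genes. It lies on chromosome 3 from 10141008 to 10152220 on the plus strand. It had 94.3, 99.3 and 97.8 CPM in the wild-type group and 102, 106 and 102 CPM in the knockout group. The knockout libraries were all slightly higher, but the difference did not pass (106% of wild type, 95% interval 99.7 to 113; edgeR, adjusted p = 0.202). With the GC correction it did, at a log2 fold change of 0.11 (95% interval 0.042 to 0.19; edgeR, adjusted p = 0.0202).

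HIF1AN, the asparaginyl hydroxylase, lies on chromosome 10 from 100529072 to 100559998 on the plus strand. It had 104, 105 and 109 CPM in the wild-type group and 98.2, 98.6 and 103 CPM in the knockout group. The knockout libraries were all lower by a narrow margin, which did not pass (94.4% of wild type, 95% interval 88.5 to 101; edgeR, adjusted p = 0.232). HIF1AN shares 2.3% of its exon bases with NDUFB8 on the opposite strand, a respiratory chain gene with 78.6 ± 2.36 CPM in the wild-type group and 82.3 ± 0.97 CPM in the knockout group (SD, n = 3).

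CITED2 competes with the HIF alpha subunits for EP300 and CREBBP and was counted here as a feedback gene. It spans 139371807 to 139374620 of chromosome 6, minus strand. It had 16.6, 15.2 and 14.95 CPM in the wild-type group and 12.9, 14.5 and 16.1 CPM in the knockout group. The groups overlapped, and the knockout libraries spread more widely than the wild-type ones (93.1% of wild type, 95% interval 81.8 to 106; edgeR, adjusted p = 0.493). Of the 3 feedback genes, then, EGLN1 fell, CITED2 did not pass and EGLN3 was too low to test. Of the 7 machinery genes HIF1A alone passed without the GC correction, upward, and its call was lost in the fits named above. With the GC correction VHL passed instead, also upward.

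Per kilobase of exon, the wild-type order of levels was VHL (23.1 ± 0.60), EGLN1 (18.9 ± 0.79), HIF1A (13.9 ± 0.49), EGLN2 (11.7 ± 0.65), HIF1AN (7.59 ± 0.22), ARNT (6.64 ± 0.46), CITED2 (6.15 ± 0.35), ARNT2 (3.95 ± 0.17), EPAS1 (2.17 ± 0.13) and EGLN3 (0.0234 ± 0.0158), all in CPM per kilobase (SD, n = 3). Only the neighbours ARNT and CITED2 had overlapping libraries in wild type. In knockout the order was the same except that HIF1A (15.5 ± 0.15) stood above EGLN1 (14.6 ± 0.28), and no neighbours overlapped. Sensors and VHL were thus more abundant than the beta subunits in both groups, with EGLN3 as the exception. Lengths are the joined exons of all transcripts in GENCODE 29, 13.95 kb for HIF1AN and 2.54 kb for CITED2, so a gene with long rare transcripts appears lower than its usual mRNA is.

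**Figure D4:**
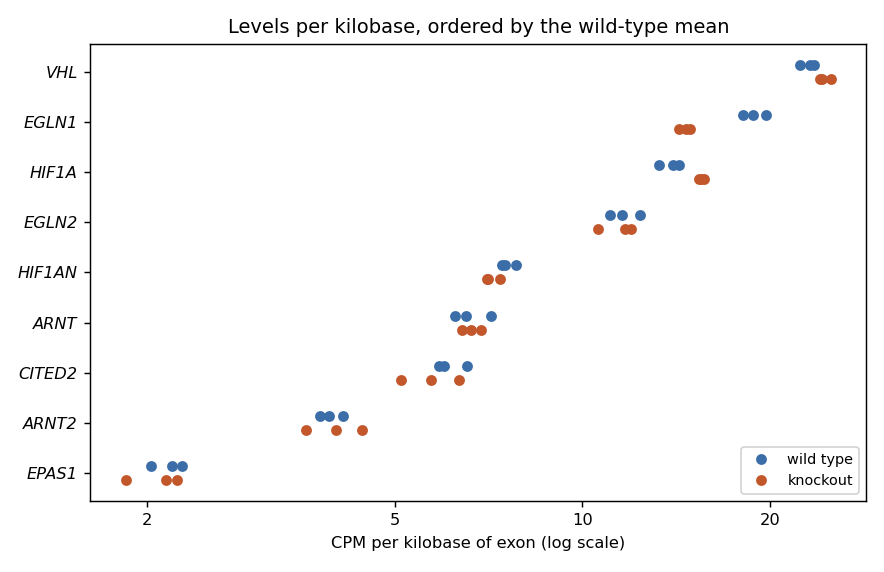
CPM per kilobase of exon (horizontal axis, log scale) in the 3 wild-type (blue) and 3 knockout (orange) libraries for 9 genes ordered by the wild-type mean, with EGLN3 left out because 2 of its libraries were at 0. On this scale, which depends on the exon lengths used, HIF1A and EGLN1 exchange places, at 13.9 and 18.9 in wild type and 15.5 and 14.6 in knockout.

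The other parts of the VHL ligase showed no called change. Of 6 partner genes 0 rose and 0 fell, beside 6.36% higher and 7.18% lower over all tested genes. Among the 6 were ELOB and ELOC for the elongins that join VHL to its cullin. The median log2 fold change of the 6 was 0.029, beside 0.001 for all tested genes. At an unadjusted p under 0.05 edgeR also had 0 higher and 0 lower, as did DESeq2 and limma-voom after adjustment. ELOB had 120 ± 6.13 and 121 ± 0.28 CPM, and ELOC 84.2 ± 2.57 and 86.6 ± 3.68 CPM, in wild type and knockout (SD, n = 3). With the GC correction ELOB passed upward at 0.12 (edgeR, adjusted p = 0.0077).

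Of 20 other regulators of HIF protein or activity 0 rose, 2 fell and 18 did not pass, with a median of -0.021. The 10% that fell is near the 7.18% of all tested genes. At an unadjusted p under 0.05 edgeR had 1 higher and 4 lower, and DESeq2 and limma-voom each called 1 higher and 2 lower. edgeR called 1 higher and 3 lower with the replicate block, with no filter beyond 1 count and with the filter of 1 CPM in 3 libraries. It called 3 higher and 2 lower with the GC correction, and 4 higher and 2 lower with that correction and the block together. Over all 14409 tested genes the GC correction gave 1978 higher and 1065 lower. Among the 20 regulators edgeR called 0 genes without wild-type replicate 2, and 1 higher and 0 lower without any 1 knockout library. WSB1, a ubiquitin ligase adaptor reported to act on VHL, was at 89.5% of wild type and FKBP8, which promotes EGLN1 protein turnover, at 90.0% (edgeR, adjusted p = 0.0307 and 0.0392). WSB1 no longer passed without wild-type replicate 2 or any 1 knockout library (edgeR, adjusted p = 0.0615 to 0.203). FKBP8 did not pass with the GC correction (edgeR, adjusted p = 0.526) or without any 1 library other than wild-type replicate 1 (adjusted p = 0.0736 to 0.182). FBXW7, a receptor for some GSK3-phosphorylated proteins, had 27.9 ± 2.66 CPM in the wild-type group and 27.9 ± 0.92 CPM in the knockout group (SD, n = 3; 95% interval 90.1 to 111% of wild type). USP28, a deubiquitinase that opposes FBXW7, was at 90.0% (95% interval 83.3 to 97.3; edgeR, adjusted p = 0.0641) and passed in 7 of the alternatives. The coactivator genes EP300 and CREBBP were at 92.7% and 107% and did not pass (edgeR, adjusted p = 0.294 and 0.278), but CREBBP passed with the GC correction, at a log2 fold change of 0.16 (adjusted p = 0.0122).

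Relatives of the HIF subunits in the bHLH-PAS family, with their coactivators, numbered 15, of which 10 were tested and 4 were listed at 0 in all libraries. Among the 10, 0 rose and 1 fell, and that 10% is near the 7.18% of all tested genes that fell. The gene that fell was NPAS1, a mostly neural repressor, from 1.67 ± 0.20 to 0.784 ± 0.11 CPM (SD, n = 3; edgeR, adjusted p = 0.00943). The median log2 fold change of the 10 was 0.069. At an unadjusted p under 0.05 edgeR had 4 higher and 1 lower, DESeq2 and limma-voom each called 0 higher and 1 lower, and without wild-type replicate 1 edgeR called 1 higher and 1 lower.

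Oxygen-dependent dioxygenases beyond the HIF hydroxylases included 8 lower (27.6%, beside 7.18% of all tested genes) and 0 higher genes among 29 tested. Their median log2 fold change was -0.055. DESeq2 and limma-voom gave the same counts, while 2 were higher and 10 lower by edgeR's p before adjustment. The 4 largest falls were those of KDM3A, a histone demethylase, at 67.9% of wild type (111 ± 4.59 to 75.5 ± 2.76 CPM), P4HA1, a collagen prolyl hydroxylase, at 68.5% (96.2 ± 7.27 to 65.9 ± 3.70 CPM), KDM4B, another demethylase, at 71.3%, and P4HA2 at 83.9% (SD, n = 3; edgeR, adjusted p at most 4.84e-04). KDM3A, P4HA1 and P4HA2 are also on the list of HIF targets.

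Most of the genes that HIF is known to induce were lower in the knockout. Of 36 tested target genes 27 fell (75%, beside 7.18% of all tested genes), 0 rose and 9 did not pass. Their median log2 fold change was -0.37. With the GC correction 28 fell and 2 rose, beside 1065 lower and 1978 higher of all 14409 tested genes. With DESeq2 and with limma-voom, 0 targets rose and 27 fell. By edgeR's p before adjustment, under 0.05, 3 were higher and 31 lower. This list overlaps sets already known to fall in these libraries, so it is not independent evidence. CA9, the carbonic anhydrase gene often used as a HIF readout, was at 52.1% of wild type, ANKRD37 at 54.2%, DDIT4, an inhibitor of mTOR signalling, at 58.7% and BNIP3L, a mitophagy receptor gene, at 62.0% (edgeR, adjusted p at most 4.80e-04). The fall of EGLN1 sat in the middle of these targets, with 20 of the 36 lower in fold change and 16 higher. CITED2 stood above 30 of them. Whether EGLN1 moved with HIF activity was not tested, and no HIF protein was measured.

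**Figure D5:**
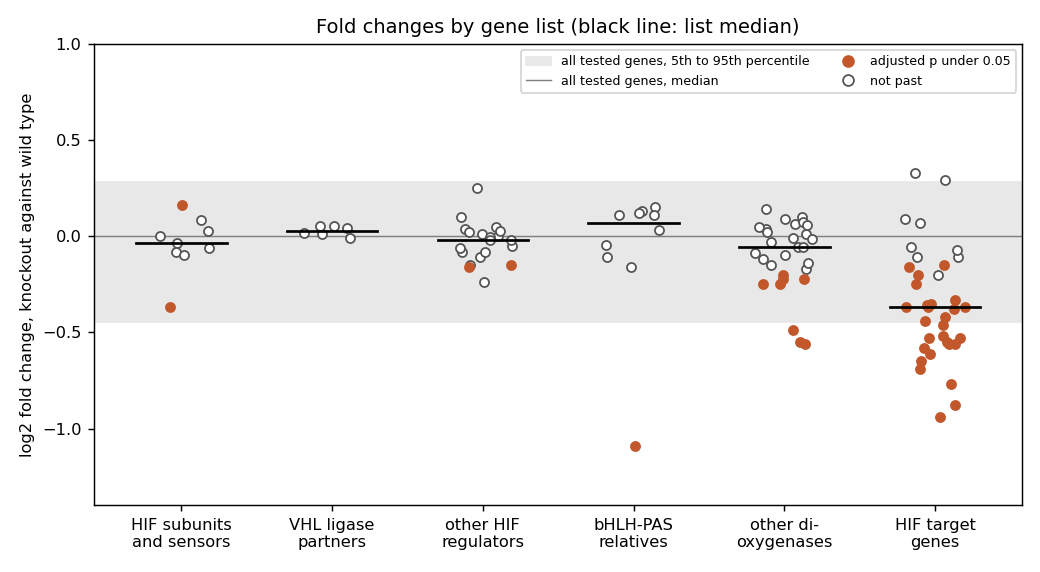
Log2 fold changes (vertical axis, knockout against wild type) of the tested genes of each list, orange where the adjusted p was under 0.05, with list medians as black lines and the 5th to 95th percentile of all tested genes in grey. The HIF target genes centre on -0.37, the level of EGLN1, while the other lists have medians between -0.055 and 0.069.

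The genes most like EGLN1 over the 6 libraries were found by the root-mean-square difference of mean-centred log2 CPM among 11229 other genes. They were HGF, the hepatocyte growth factor gene (0.024; 270 ± 11.6 to 212 ± 1.07 CPM), the tankyrase gene TNKS2 (0.024; 40.5 ± 1.91 to 30.6 ± 0.18 CPM) and the kinase gene CAMK1D (0.035; 25.47 ± 1.605 to 20.02 ± 0.257 CPM) (SD, n = 3). Those most like HIF1A were the cyclin gene CCNE2 (0.008), the ribosomal protein gene RPL26 (0.009) and the ATP synthase gene ATP5F1C (0.010). Each of these genes shares the direction of the difference between the groups with the gene it resembles. How much of the likeness comes from that difference was not measured. The number of genes at such a distance was not counted.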

How the data were processed

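Messenger RNA of RKO cells was measured in 6 libraries, 3 per group, grouped by the sample titles. The authors deposited 1 table per library of unscaled whole-number counts by gene symbol. The submitters' processing notes name hg38, TopHat, limma and edgeR, without versions or roles. The counter, its annotation and its strand setting: not given in the sources used here. Counts were tested in R 4.3.3 with edgeR 4.0.16: filterByExpr (minimum count 10, total 15), TMM, robust quasi-likelihood fit with group as the only term, Benjamini-Hochberg adjustment over all 14409 tested genes, threshold 0.05. Confidence intervals use the moderated degrees of freedom. Single measures were compared by exact permutation of libraries (scipy 1.17.1). The fit was tested on simulated data. Each library was counted as 1 replicate. Pairs of libraries within a group differed by more than sampling noise (chi-square per degree of freedom 3.17 to 9.78), which does not show that they were separate cultures.

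Symbols were matched to GENCODE 29 by name or, failing that, through current or older symbols (26218 of 28278 in all), and lengths and coordinates come from it. A match through an older symbol can carry the length and GC content of another gene, as happened for HIF1A-AS2 in the GC correction. Promoters come from RefSeq. For the GC correction, each gene's deviation in log2 CPM from its mean over the libraries was fitted, library by library, on transcript GC. The fit was a 5-degree-of-freedom spline and entered the model as an offset (95.9% of tested genes had a GC value). Other alternatives were RLE or no scaling factors, 2 other filters, the replicate block, DESeq2 1.42.0, limma-voom (limma 3.58.1), no robust option and leaving out each library. The 10 genes, their split into feedback and machinery genes, and the lists were chosen with earlier results of these data known. Named genes were the 10, GSK3B, up to 4 called genes with the largest change per list (otherwise the 2 highest), FBXW7, USP28, EP300 and CREBBP, and the 3 nearest patterns of each called gene (mean of 5 CPM or more), on log2 CPM with 0.5 added.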

Additional observations from a re-analysis of the deposited data

How the results depend on the processing

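Depth limited EGLN3 alone among the 10 genes. EGLN1 kept its direction and its call in all 16 alternative fits, and HIF1A kept its direction in all 16 and passed in 10. Of the 10 genes 2 changed with all libraries, and 1 to 2 in the fits without 1 library. With all libraries the 2 were EGLN1 and HIF1A, but EGLN1 and VHL in the fits with the GC correction, with or without the replicate block. Over all genes 1951 changed, but 3043 (1978 higher, 1065 lower) with the GC correction, 3061 with the GC correction and the replicate block together, and 950 to 2531 without 1 library. The replicate numbers mark no stated pairing, and deviations of same-numbered libraries correlated at 0.071, -0.004 and 0.031. With the replicate block alone the 10 genes kept 2 calls, HIF1A at 0.16 being one. Differences taken within replicate numbers gave an exact p of 0.25 for the EGLN1 share and for the EPAS1 to HIF1A ratio, the smallest that 3 pairs allow, and their values of -5.49 and -0.23 are the same by construction. Without 1 library these ran from -6.65 to -4.91 and from -0.28 to -0.15.

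Signs of fold changes (log2) turned for genes near 0. Without 1 library, EPAS1 ran from -0.12 to 0.018, ARNT from -0.040 to 0.058, ARNT2 from -0.049 to 0.097, EGLN2 from -0.071 to 0.012, ELOB from -0.019 to 0.058 and FBXW7 from -0.075 to 0.052. ARNT stood at -0.018 and ELOB at -0.0018 with scaling by library size alone. ARNT stood at -0.0010 without a filter beyond 1 count and at -0.0048 with the filter of 1 CPM. EGLN2 stood at 0.030 and FBXW7 at 0.019 with the GC correction, and at 0.029 and 0.021 with the block added. FBXW7 stood at 0.0023 with the replicate block alone and at 0.0039 in limma-voom. The causes were not tested.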

Other observations

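MIR210HG, the host transcript of the hypoxia-induced microRNA miR-210 and on none of the lists, was picked out after its values were seen. Wild-type replicates 1 to 3 had 6.20, 7.95 and 7.96 CPM, and knockout replicates 1 to 3 had 2.44, 3.05 and 3.22 CPM, or 39.4% of wild type (95% interval 31.9 to 48.7; edgeR, adjusted p = 8.78e-07). Its fall was larger than that of EGLN1, at a log2 fold change of -1.34 ± 0.148 (SE) against -0.37 ± 0.044.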
